A study of Homo sapiens and Mus musculus with 13 samples.

Results

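The S100 family, a set of small calcium-binding proteins, was followed in poly(A) RNA sequencing of MDA-MB-231 cells and of mouse mammary tumours. Members were taken by symbol: S100 followed by A and digits, B, G, P or Z in human, and by a and digits, b, g or z in mouse. There were 19 members among 24523 human symbols and 16 among 55228 mouse symbols. Levels are FPKM, that is, fragments scaled to exon length and to the library's mapped fragments, so they can be compared between genes of different length within a table.

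MDA-MB-231 is a human triple-negative breast cancer cell line. The 7 lines carried Cas9 with guide RNAs delivered by lentivirus. Control (1 line) received a guide against GFP. The 2 TRIM11-KD lines received TRIM11-sgRNA1 or TRIM11-sgRNA2, and the 2 KDM5C-KD lines received KDM5C-sgRNA1 or KDM5C-sgRNA2. In DKD, the KDM5C guide was sgRNA2 in both lines, joined by TRIM11-sgRNA1 in DKD 1 and by TRIM11-sgRNA2 in DKD 2. TRIM11 is a ubiquitin E3 ligase and KDM5C is a histone H3K4 demethylase, and the study asked how the ligase acts through the demethylase. The 6 tumours came from 3-month-old female mice that were hybrids: Trim11+/- mice on C57BL/6N had been backcrossed for at least 3 generations and mated with transgenic FVB/N-Tg (MMTV-PyVT) 634Mul/J mice, in which the MMTV promoter drives the polyoma middle T oncogene in mammary epithelium. The groups have limits as models. Control was 1 library, each knockdown line was a puromycin-selected population for 1 guide or guide pair, and the Trim11 deletion was present in all cells of the mouse, not only in the tumour epithelium. There were 3 wild-type tumours (WT) and 3 Trim11+/- tumours, in which exons 2 to 6 of 1 Trim11 allele had been deleted with CRISPR/Cas9.

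S100 proteins have 2 EF-hand calcium-binding motifs per chain and mostly work as dimers that open a binding surface for target proteins when calcium rises. Inside cells they bind annexins, myosin, p53 and ubiquitin-ligase adaptors, and some are released and bind the receptors RAGE (AGER) and TLR4. In breast tissue, S100A4 is known for its link to cell motility, and the S100A8/S100A9 pair is best known from neutrophils and monocytes.

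The labels were checked first. In the lines, VIM stood between 1038 and 1309 FPKM and CD44 between 188 and 347 FPKM, whereas ESR1 and PGR did not pass 0.0234 FPKM. KDM5C was at 30.3 FPKM in Control, 29.8 and 28.4 FPKM in TRIM11-KD, 20.6 and 21.4 FPKM in KDM5C-KD and 18.8 and 22.7 FPKM in DKD. TRIM11 RNA was at 12.6 FPKM in Control and was not lower in the libraries labelled TRIM11-KD 1 (13.4 FPKM) and DKD 1 (16.1 FPKM). It was 10.6 FPKM in TRIM11-KD 2 and 9.38 FPKM in DKD 2. The study checked its knockdown lines by western blotting of protein, which these RNA values do not measure. Directions drawn from TRIM11 guides below refer to library labels. Trim11 was 35.8, 36.3 and 39.2 FPKM in WT and 24.0, 22.8 and 22.9 FPKM in Trim11+/- tumours, and the tumours expressed Krt8 at 335 to 532 FPKM and Epcam at 408 to 493 FPKM. The tumour values correspond to 8793200 to 11117126 reads per library. Depth was unknown for the lines. Over 17328 genes, the deviations of tumours WT 1 and Trim11+/- 3 from their own group means correlated at r = 0.37. It was the highest of the 9 pairs across genotypes, followed by WT 2 with Trim11+/- 1 at r = 0.30. Deviations from a group mean cancel within the group, so these values depend on each other.

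Most human members, 15 of 19, lie on chromosome 1 between bases 151955391 and 153604515 of hg19, and 13 of 16 mouse members lie on chromosome 3 between bases 90511034 and 93564643 of mm10. A mean of at least 0.5 FPKM was reached by 10 human members and by 11 mouse members, which are those tested below. On hg19, the human members named most below are S100A6 (chr1:153507075-153508720), S100A2 (chr1:153533584-153540366), S100A16 (chr1:153579362-153585621) and S100A13 (chr1:153591263-153603836), all on the minus strand, and S100P (chr4:6695605-6698897, plus strand). On mm10, S100a8 lies at chr3:90668978-90670035 (plus strand) and S100a9 at chr3:90692632-90695721 (minus strand).

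In MDA-MB-231, S100A6 (calcyclin, which binds the ubiquitin-ligase adaptor CACYBP and annexins) was the most abundant member in every line. It took 62.5% of the family's summed FPKM in Control and 48.2% to 58.3% in the knockdown lines. By FPKM it was the 6th most abundant of all genes in Control, and between the 8th (TRIM11-KD 1) and the 19th (DKD 2) in the others. S100A11, a partner of annexin A1, was next at 640 to 748 FPKM. S100A4, which binds non-muscle myosin, ranged from 344 to 639 FPKM and S100A10, the partner of annexin A2 that has lost calcium binding, from 415 to 476 FPKM, so their ranges overlap. Below them stood S100A16 (113 to 244 FPKM) and S100A13 (71.9 to 130 FPKM), a protein known for the export of the growth factor FGF1. S100A2, a nuclear member that binds p53, and S100A3, first known from hair cuticle, were at 10.1 to 34.4 and 13.2 to 27.5 FPKM, ranges that overlap. S100A5 and S100P stayed at or below 3.08 FPKM.

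**Figure D1:**
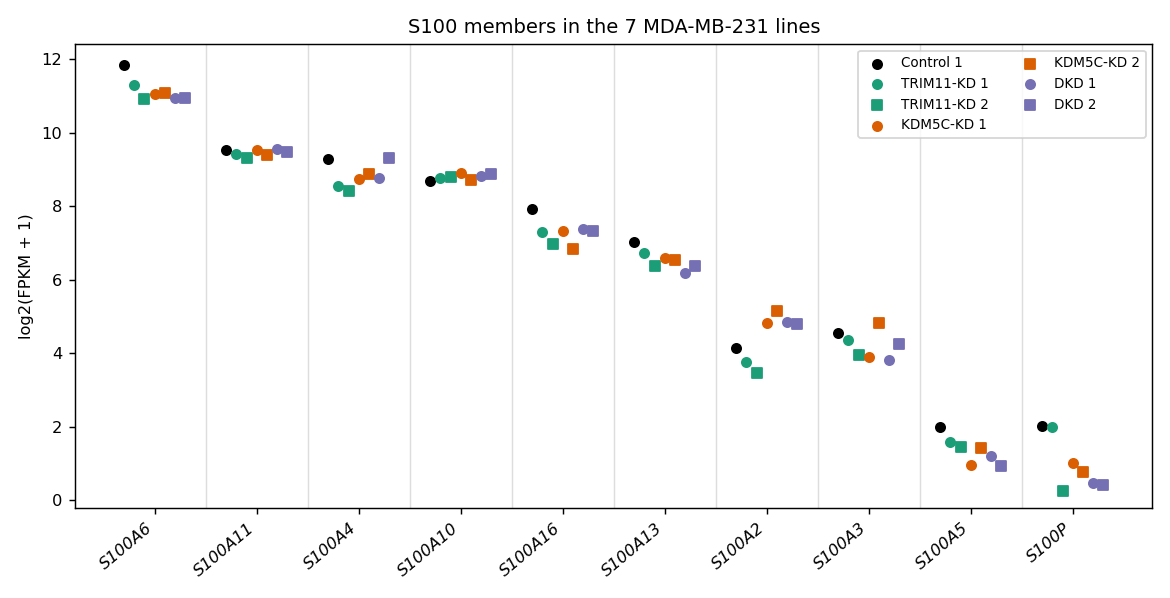
Level of the 10 tested human S100 members in the 7 MDA-MB-231 lines, as log2(FPKM + 1) on the vertical axis, with 1 point per library and members ordered by mean level. S100A6 lies above every other member in each line, its Control point (3658 FPKM) lies above those of the 6 knockdown lines (1943 to 2510 FPKM), and S100A2 is the member whose 4 lines with a KDM5C guide lie above the other 3.

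The remaining 9 human members were near or at 0. S100A8, S100A7, S100A12 and S100B were listed at 0 in all 7 lines. S100A9 did not pass 0.153 FPKM, S100Z 0.153, S100A14 0.371, S100A1 0.539 and S100G, an intestinal and uterine calcium buffer, 1.21 FPKM. Of symbols close to the rule, S100A7A and S100A7L2 were listed at 0 in all lines, and S100PBP, which encodes an S100P-binding protein outside the family, stood at 5.52 to 7.64 FPKM.

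Promoter windows from RefSeq (GRCh38.p14, first listed start, 250 bases before to 50 bases after it) show what 3 members with unlike patterns have upstream: S100A6, below Control in every knockdown line, S100A2, higher with KDM5C guides, and S100A10, nearly level. All lie on the minus strand, at chr1:153535942-153536241, chr1:153565795-153566094 and chr1:151993810-151994109, and read 5′ to 3′ with matches to the searched motifs in capitals.
S100A6: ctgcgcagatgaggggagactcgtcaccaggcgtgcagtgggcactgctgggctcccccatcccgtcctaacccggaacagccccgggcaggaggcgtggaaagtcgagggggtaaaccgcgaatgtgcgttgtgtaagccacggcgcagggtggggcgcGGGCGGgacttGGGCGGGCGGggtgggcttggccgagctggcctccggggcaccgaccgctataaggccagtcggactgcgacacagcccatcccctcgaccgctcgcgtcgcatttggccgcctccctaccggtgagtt
S100A2: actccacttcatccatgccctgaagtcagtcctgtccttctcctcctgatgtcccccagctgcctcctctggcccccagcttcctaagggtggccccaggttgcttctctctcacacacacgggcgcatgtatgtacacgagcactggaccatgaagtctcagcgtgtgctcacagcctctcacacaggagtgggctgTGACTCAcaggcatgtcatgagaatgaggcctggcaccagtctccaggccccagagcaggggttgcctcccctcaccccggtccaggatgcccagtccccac
S100A10: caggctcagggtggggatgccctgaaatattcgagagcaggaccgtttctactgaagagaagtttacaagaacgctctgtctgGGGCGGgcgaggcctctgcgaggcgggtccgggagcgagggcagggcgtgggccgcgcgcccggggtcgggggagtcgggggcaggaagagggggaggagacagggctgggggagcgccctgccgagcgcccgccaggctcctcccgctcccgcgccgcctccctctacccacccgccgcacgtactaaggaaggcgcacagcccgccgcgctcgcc
The motifs searched on both strands were the TATA box TATAAA, the CCAAT box itself, the GC box GGGCGG and the AP-1 element TGANTCA. S100A6 holds 3 GC boxes, of which the last 2 overlap, S100A10 holds 1, and S100A2 holds none but has 1 AP-1 element. The pattern TGANTCA matches both strands at the same place, so each match was counted once. Over all 27305 first listed promoters, 44.6% hold the GC box, 7.76% the AP-1 element, 12.0% the TATA box and 35.7% the CCAAT box. Among the 18 S100 members with a listed promoter, 6 hold the GC box, 3 the AP-1 element (S100A2, S100A3 and S100A12), 7 the TATA box and 4 the CCAAT box. S100A2 has 2 listed starts, and GC content of the windows shown is 69.3% for S100A6, 61.0% for S100A2 and 71.7% for S100A10, against a median of 58.3% over all promoters. These matches are letters in a window and not sites of binding.

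The knockdown lines were then set against Control. With 1 Control library these ratios have no replicate check and carry no test, and all of them share the Control value. A member counted as lower or higher in a group when every line of that group differed from Control at least 1.5-fold in FPKM in the same direction.

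S100A6 was lower than Control in all 6 knockdown lines. It measured 3658 FPKM in Control, 2510 and 1943 FPKM in TRIM11-KD, 2137 and 2152 FPKM in KDM5C-KD, and 1975 and 1956 FPKM in DKD. The lines did not overlap Control, and 5 of them lay within 1943 to 2152 FPKM. Control exceeded the lines 1.46-fold (TRIM11-KD 1) to 1.88-fold (TRIM11-KD 2), so the fold of 1.5 was met in both KDM5C-KD and both DKD lines and missed in TRIM11-KD 1. Scaling the libraries by median ratios or to 1 total moved the highest ratio to Control from 0.686 to at most 0.692. S100A6 accounted for most of the difference in the family's sum, which was 5856 FPKM in Control and 3607 to 4304 FPKM in the knockdown lines. Without S100A6 the sum was 2198 FPKM in Control and 1664 to 2104 FPKM in the others.

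The members below Control in every knockdown line, at any size, were S100A6, S100A16, S100A13, S100A5 and S100P. That is 5 of 10, where 16.1% of all 12636 genes tested did so. S100A10 was the 1 member above Control in every line, at 415 FPKM in Control and 422 to 476 FPKM in the others, where 13.6% of genes did so. Its largest ratio to Control was 1.15. At 1.5-fold in all 6 lines no member was lower or higher, against 0.91% and 1.16% of genes. This count rested on 2 lines, since 3 members were lower without TRIM11-KD 1 and 1 without DKD 1. The median log2 ratio to Control over the 10 members ran from -0.67 in TRIM11-KD 2 to -0.35 in TRIM11-KD 1, whereas over all genes it ran from -0.01 to 0.00 (log2 of FPKM + 1).

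S100A16, a broadly expressed member, stood at 244 FPKM in Control, 157 and 124 FPKM in TRIM11-KD, 161 and 113 FPKM in KDM5C-KD, and 167 and 159 FPKM in DKD. No line reached Control, and DKD 1, at 1.47-fold, was the 1 line short of 1.5-fold. S100A13 stood at 130 FPKM in Control, 104 and 82.0 FPKM in TRIM11-KD, 94.8 and 92.6 FPKM in KDM5C-KD and 71.9 and 82.6 FPKM in DKD. These too were all below Control, and DKD 1 was the lowest. S100A13 shares 33.5% of its exon bases with S100A1 on the other strand and with a non-coding gene, and the libraries kept no strand, so its reads cannot be told apart from theirs. S100A5, whose gene lies 902 bases from S100A6 on hg19, was at 3.02 FPKM in Control and 0.92 to 2.02 FPKM in the knockdown lines.

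S100P, a member that binds ezrin and RAGE and lies on chromosome 4, had the widest span relative to its level. Its exons cover 471 bases, and S100P and S100A5 both stayed at or below 3.08 FPKM. Depth was unknown for the lines, so the counting error of these 2 members is not known. S100P was at 3.08 FPKM in Control and 2.99 FPKM in TRIM11-KD 1, but 0.184 FPKM in TRIM11-KD 2, so the TRIM11-KD lines did not resemble each other. It was 1.01 and 0.701 FPKM in KDM5C-KD and 0.385 and 0.333 FPKM in DKD, below Control in each.

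S100A4 varied between lines, and none of the main fits of the lines given below called it (limma adjusted p from 0.675 to 0.860). Control was at 625 FPKM, and both TRIM11-KD lines were lower at 375 and 344 FPKM. KDM5C-KD lay between at 430 and 469 FPKM, and the DKD lines were split at 433 and 639 FPKM, the second of which was above Control. S100A3, whose gene lies within the span of S100A4 on the same strand without shared exon bases, was at 22.4 FPKM in Control, 19.4 and 14.5 FPKM in TRIM11-KD, 13.9 and 27.5 FPKM in KDM5C-KD, and 13.2 and 18.2 FPKM in DKD. The knockdown groups overlapped each other. S100A11 was nearly level, at 737 FPKM in Control, 688 and 640 FPKM in TRIM11-KD, 739 and 667 FPKM in KDM5C-KD, and 748 and 709 FPKM in DKD.

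By group, 2 members were lower in TRIM11-KD (S100A4 and S100A16, where 2.58% of genes were lower) and none was higher (3.25% of genes). In KDM5C-KD, 4 were lower (S100A6, S100A16, S100A5 and S100P, against 3.97% of genes) and S100A2 was higher (5.22%). In DKD, 4 were lower (S100A6, S100A13, S100A5 and S100P, against 4.87%) and S100A2 was again higher (5.71%). TRIM11-KD 1 decided the first of these counts: without it, 8 members were lower in TRIM11-KD 2 alone, where 9.45% of genes were. The lower counts in KDM5C-KD and DKD also depended on single lines. S100A3 met the fold in KDM5C-KD 1 (1.61-fold) and in DKD 1 (1.70-fold) but not in the other line of each group. S100A16 met it in DKD 2 (1.54-fold) but not in DKD 1.

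**Figure D2:**
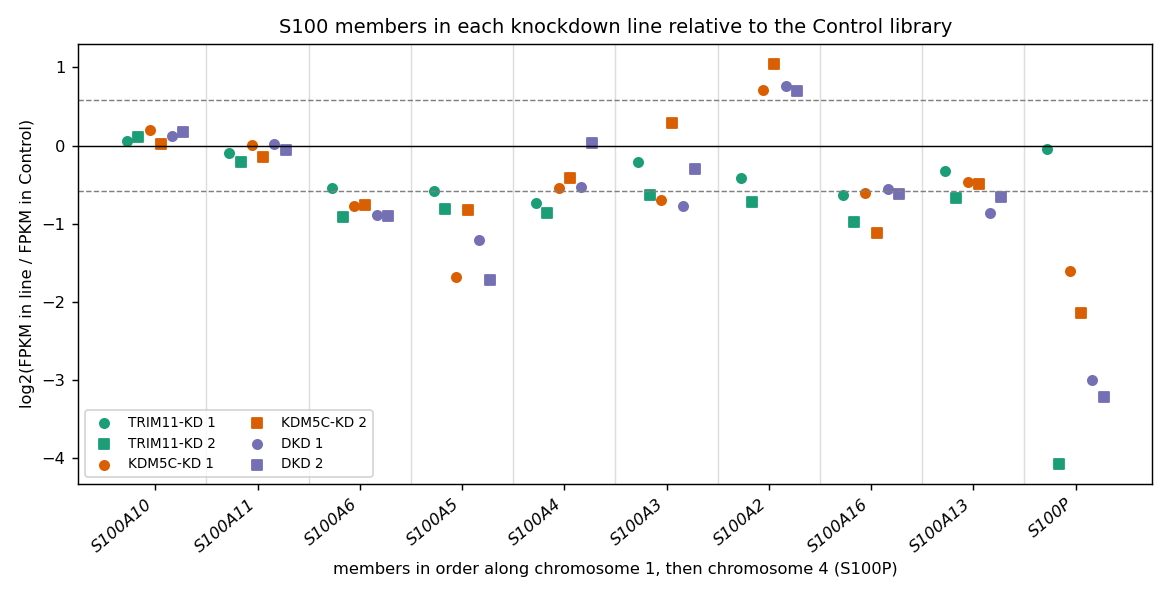
Log2 ratio of FPKM in each knockdown line to FPKM in the Control library, vertical axis, for the 10 tested human members in their order along chromosome 1 with S100P on chromosome 4 last. Each point is 1 library and dashed lines mark 1.5-fold. All 6 points of S100A6, S100A5, S100A16, S100A13 and S100P lie below 0, S100A10 and S100A11 lie near 0, and S100A2 lies above 0 in the 4 lines with a KDM5C guide only.

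To ask what each guide added, the 7 lines were fitted with limma with a term for a KDM5C guide (4 lines with, 3 without) and a term for a TRIM11 guide (4 with, 3 without). A gene was called when the ratio of mean FPKM was at least 1.5 and the unadjusted p was under 0.05, the kind of cut-off the study used. The adjusted p is from Benjamini-Hochberg over all 12636 genes. Nothing said that the lines were separate cultures of 1 state, so p measures the spread between these libraries.

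S100A2 had the smallest p of the 10 members for the KDM5C guide. It measured 16.7 FPKM in Control and 12.5 and 10.1 FPKM in TRIM11-KD, against 27.4 and 34.4 FPKM in KDM5C-KD and 28.2 and 27.0 FPKM in DKD. The 4 lines with a KDM5C guide all lay above the 3 without, with no overlap. The ratio of means was 2.23, and the log2 difference 1.07 ± 0.14 (SE) had a limma p of 8.6e-05, the 4th smallest of 12636 genes, but an adjusted p of 0.199, so it met the call rule and failed the correction. Over the alternatives tried the log2 difference stayed between 0.96 and 1.22 and the adjusted p between 0.191 and 0.847. The two-sided exact permutation test, which took no account of the TRIM11 guide, gave p = 0.0571, the smallest that 4 against 3 allows. Of the 4 lines, 3 share KDM5C-sgRNA2, and KDM5C-KD 1, with sgRNA1, stood within their range.

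S100P had the wider fold between means, at 0.608 FPKM with and 2.09 FPKM without a KDM5C guide, but its groups overlapped and its log2 difference of -0.86 ± 0.39 (SE, limma adjusted p = 0.471) was not called.

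S100A5 was the other called member, on the lower side. It measured 3.02, 2.02 and 1.73 FPKM in the lines without a KDM5C guide and 0.941, 1.71, 1.30 and 0.920 FPKM in those with one. The groups touch without overlapping, at 1.73 and 1.71 FPKM. The log2 difference was -0.59 ± 0.18 (SE), with limma adjusted p = 0.384, and without Control the unadjusted limma test missed its threshold (adjusted p = 0.729). Without TRIM11-KD 2, 3 members were called lower. Thus 1 of 10 members was called higher and 1 lower with the KDM5C guide, where 1.84% and 1.65% of genes were called. Groups without overlap were seen for these 2 members, and for 10.7% of genes.

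S100A6 and S100A13 were lower with the KDM5C guide by less than 1.5-fold. For S100A6 the log2 difference was -0.41 ± 0.16 (SE, limma adjusted p = 0.431), and without Control it was -0.17 (adjusted p = 0.817), so it rested on that library. For S100A13 the log2 difference was -0.35 ± 0.12 (SE, adjusted p = 0.403), and -0.26 without Control. With the TRIM11 guide, S100A13 gave -0.36 ± 0.12 (SE, adjusted p = 0.448) and S100A6 -0.37 ± 0.16 (adjusted p = 0.480). Without Control, S100A13 gave -0.28 and S100A6 -0.13 for this guide, so most of the S100A6 difference rested on that library. No member was called for the TRIM11 guide (2 were lower without KDM5C-KD 1 and 1 without TRIM11-KD 1), where 2.07% of genes were called higher and 1.86% lower, and 9 of 10 members had a log2 difference below 0 (median -0.29, against -0.01 over all genes). S100A2 was among these 9, at -0.30 ± 0.14 (SE, limma adjusted p = 0.489). The count of 9 rested on Control. Without that library the TRIM11 term is DKD minus KDM5C-KD, the comparison given below with the opposite sign. There, 6 of 10 members were lower in DKD, with a median log2 difference of 0.12 for KDM5C-KD minus DKD.

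**Figure D3:**
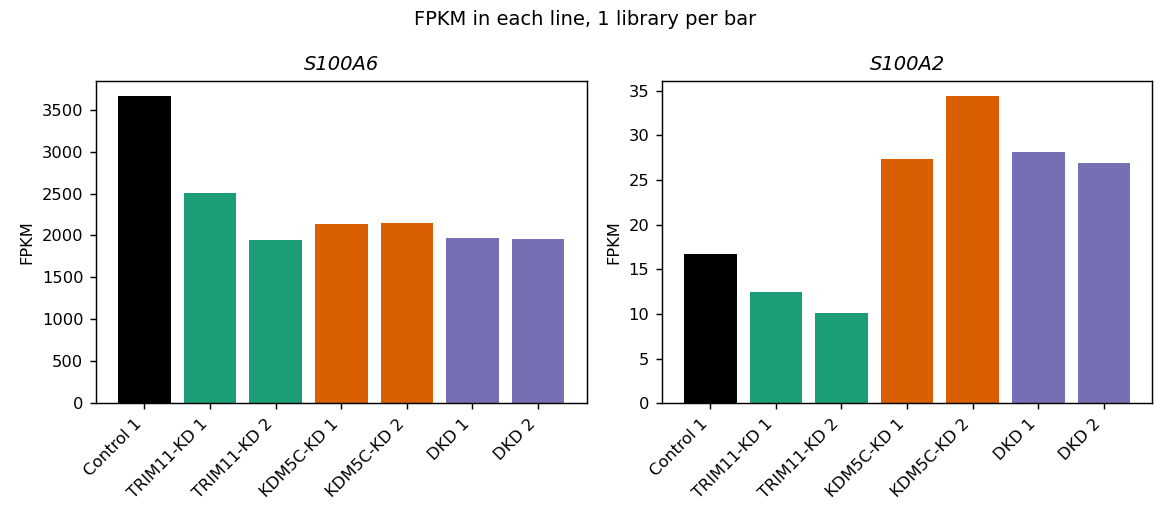
FPKM of S100A6 (left) and S100A2 (right) in each of the 7 lines, 1 library per bar, with linear vertical axes from 0. S100A6 is highest in Control at 3658 FPKM and 1943 to 2510 FPKM elsewhere, and S100A2 is 10.1 to 16.7 FPKM in Control and TRIM11-KD and 27.0 to 34.4 FPKM in KDM5C-KD and DKD.

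KDM5C-KD was also compared with DKD, with 2 lines in each group. Both DKD lines carry KDM5C-sgRNA2 and a TRIM11 guide, whereas KDM5C-KD holds 1 line of each KDM5C guide, so the groups differ in the mix of KDM5C guides as well as in the TRIM11 guide. No member was called, where 3.41% of genes were called higher and 3.33% lower in KDM5C-KD, and at an unadjusted limma p under 0.05 the count of members was also 0. Without KDM5C-KD 1, 1 member was called higher. S100A6 was higher in both KDM5C-KD lines than in both DKD lines, but by 0.13 ± 0.17 on the log2 scale (SE, adjusted p = 0.789). S100A13 and S100P were also higher in both KDM5C-KD lines. The share of all genes without overlap was not counted here, and with 2 lines per group such separation is weak evidence. The largest log2 differences were those of S100P (0.45 ± 0.53), S100A3 (0.32 ± 0.34) and S100A13 (0.28 ± 0.15), with adjusted p from 0.512 to 0.763 in limma.

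The genes whose log2 level over the 7 lines was most like that of S100A6, among 8784 other genes with a mean of at least 5 FPKM, were RFXANK (r = 0.99), VARS2 (r = 0.99), SERTAD1 (r = 0.98), SIN3B (r = 0.98) and ILVBL (r = 0.98). All 5 had their highest value in Control, for example 40.2 FPKM for RFXANK against a lowest of 25.4 FPKM. These points share the 7 libraries and are a description.

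Known receptors and partners of S100 proteins gave few calls in the lines. Of 24 listed genes, 21 were tested, and no gene was called for either guide. The median log2 difference was 0.03 for the KDM5C guide and 0.03 for the TRIM11 guide, against 0.00 and -0.01 over all genes. The S100A6 partner CACYBP stood at 39.8 to 56.4 FPKM and the S100A10 partner ANXA2 at 1152 to 1646 FPKM, lowest in Control. At any size, 2 of the 21 were above Control in all 6 lines (ANXA2 and IQGAP1) and 2 below (FKBP8 and ATP2A2). Among all genes tested, 13.6% were above and 16.1% below, so neither count sets the list apart. FKBP8, which S100 proteins bind, was at 260 FPKM in Control and 165 to 197 FPKM in the knockdown lines. The receptor TLR4 spread from 5.84 to 20.9 FPKM and differed between lines of 1 group, with 5.84 and 20.2 FPKM in DKD. AGER, which encodes RAGE, was low, at 0.897 FPKM in Control and 0.571 and 0.263 FPKM in KDM5C-KD. It was the 1 tested gene of the list at least 1.5-fold lower in both lines of a group. Among all genes, 3.97% were lower in KDM5C-KD by this rule. ANXA6, an annexin that S100A6 binds, was called in KDM5C-KD against DKD, at 61.1 and 29.5 against 79.9 and 80.7 FPKM (log2 difference -0.90 ± 0.31 SE, limma adjusted p = 0.389), and lost the call when either DKD line was left out.

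In the tumours the order of the members was another one. S100a11 led in all 6, with 46.6% to 62.1% of the family's sum, and S100a6 took 5.15% to 10.2%. Human and mouse tables were normalized separately, and cell lines hold no stroma, so only the order within each is given. After S100a11 (386 to 498 FPKM) came S100a1 (88.1 to 156 FPKM), a member known from heart muscle, S100a10 (64.9 to 85.3 FPKM), S100a6 (41.3 to 84.4 FPKM), S100a16 (31.7 to 67.3 FPKM) and S100a13 (29.4 to 45.4 FPKM). From S100a10 to S100a13 neighbouring ranges overlap. S100a8 (10.2 to 34.0 FPKM), S100a14 (1.48 to 14.6 FPKM), S100b (2.79 to 8.28 FPKM), S100a9 (0.436 to 5.43 FPKM) and S100g (0 to 3.24 FPKM) followed.

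Members below the filter were S100a4, S100a5, S100a3, S100a2 and S100z. S100a4, whose human counterpart is among the most abundant genes of MDA-MB-231, had 0 to 3 reads per tumour. In the mouse annotation 51.7% of its exon bases are shared with Gm42674, which was itself listed at 0 in all 6 tumours, and the part of this overlap in the count was not tested. S100z had no read in any tumour, which allows at most 0.676 to 0.855 FPKM at 3 reads, a limit that covers counting error only. S100a7a (0 to 0.270 FPKM) and S100a11-ps (listed at 0) fall outside the rule.

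**Figure D4:**
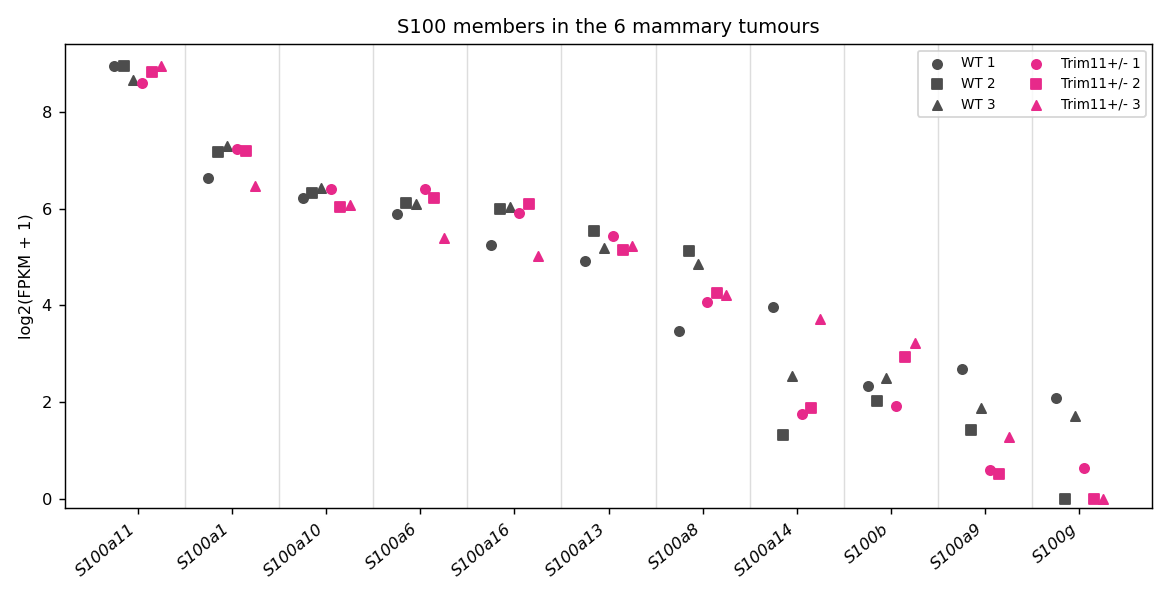
Level of the 11 tested mouse S100 members in the 6 tumours, as log2(FPKM + 1) on the vertical axis, with 1 point per tumour and members ordered by mean level. Genotypes overlap for every member except S100a9, where the 3 WT tumours (1.70 to 5.43 FPKM) lie above the 3 Trim11+/- tumours (0.436 to 1.43 FPKM).

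S100a8 and S100a9 encode the subunits of calprotectin, which neutrophils and monocytes carry in large amounts. S100a8 measured 10.2, 34.0 and 28.0 FPKM in WT 1 to 3 and 15.8, 18.2 and 17.6 FPKM in Trim11+/- 1 to 3, from 77, 240, 195, 122, 111 and 131 reads. The genotypes overlapped, since WT 1 was the lowest of all 6 while WT 2 and WT 3 were the highest. The log2 difference, Trim11+/- minus WT, was -0.31 ± 0.41 (SE, limma adjusted p = 0.895). Without WT 1 it was -0.81 and met the call rule (adjusted p = 0.486), so this call depended on 1 tumour.

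S100a9 measured 5.43, 1.70 and 2.67 FPKM in WT and 0.517, 0.436 and 1.43 FPKM in Trim11+/- tumours, from 31, 9, 14, 3, 2 and 8 reads. Every WT tumour lay above every Trim11+/- tumour. The mean was 3.27 ± 1.94 FPKM in WT and 0.793 ± 0.550 FPKM in Trim11+/- (SD, n = 3 each), a ratio of 0.243, and the log2 difference was -1.20 ± 0.36 (SE). It met the call rule and failed the correction over 17328 genes (limma adjusted p = 0.635), and the two-sided exact permutation test gave p = 0.10, the smallest that 3 against 3 allows. On recovered reads with voom the log2 difference was -1.93 (adjusted p = 0.687), and leaving out each tumour gave -1.48 to -0.85, with the call lost without Trim11+/- 2. Counts this low carry a large counting error. In these bulk samples, fewer cells of a type and less RNA per cell cannot be told apart.

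S100a8 and S100a9 did not go together across the tumours: WT 1 had the lowest S100a8 and the highest S100a9. S100a9 was thus 1 of 11 members called lower, where 1.87% of genes were called, and no member was called higher (1.74% of genes). It was also the 1 of 11 members whose genotypes did not overlap, as for 13.4% of all genes.

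A few cell type markers were called lower in Trim11+/- tumours beside S100a9, where 1.87% of all genes were called lower. None of these markers passed the correction. Of 12 neutrophil markers 3 were tested, and Ltf, which mammary epithelium also makes, was called lower (269, 312 and 361 FPKM in WT against 234, 143 and 88.1 FPKM in Trim11+/-, limma adjusted p = 0.635). The summed level of the 12 was 280 to 369 FPKM in WT and 99.3 to 240 FPKM in Trim11+/-, and without Ltf 8.87 to 11.5 and 4.42 to 11.2 FPKM, which overlap. Csf3r and Cd177, also tested, were not called. Csf3r was at 1.63 to 2.23 FPKM in WT and 1.21 to 1.51 FPKM in Trim11+/-, without overlap, as for 13.4% of all genes. Cd177 overlapped, at 5.72 to 7.83 FPKM in WT and 2.24 to 8.22 FPKM in Trim11+/-, highest in Trim11+/- 3. The defining markers Ly6g and Stfa2 had no read in any tumour, and Ngp, Camp and Retnlg at most 4 reads. Of 7 myoepithelial markers 4 were called lower, namely Krt5, Krt14, Trp63 and Oxtr (limma adjusted p from 0.610 to 0.669). Krt14 was not called without WT 3 or without Trim11+/- 2. The summed level of the 7 was 138 to 347 FPKM in WT and 63.6 to 92.2 FPKM in Trim11+/-. No marker was called among 8 macrophage (522 to 716 against 477 to 568 FPKM summed), 8 fibroblast (169 to 362 against 146 to 261 FPKM) or 5 luminal epithelial genes (1398 to 1704 against 1320 to 1832 FPKM). Likewise no adipocyte (14.9 to 117 against 8.56 to 83.0 FPKM), squamous (4.65 to 10.2 against 2.98 to 6.86 FPKM), T cell (1.63 to 3.02 against 0.664 to 1.66 FPKM) or skeletal muscle marker (18.1 to 182 against 0.679 to 218 FPKM) was called, with 3 squamous markers and 1 T cell marker high enough to test. Though not called, all 8 macrophage and all 8 fibroblast markers had log2 differences below 0 (medians -0.12 and -0.31, against -0.0048 over all genes). The 4 skeletal muscle, 3 squamous and 1 T cell markers tested were also below 0. Adipocyte markers were split, with 1 above and 3 below 0, as were luminal epithelial markers, with 3 above and 2 below. The part of these cell types in the S100a9 values was not tested.

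**Figure D5:**
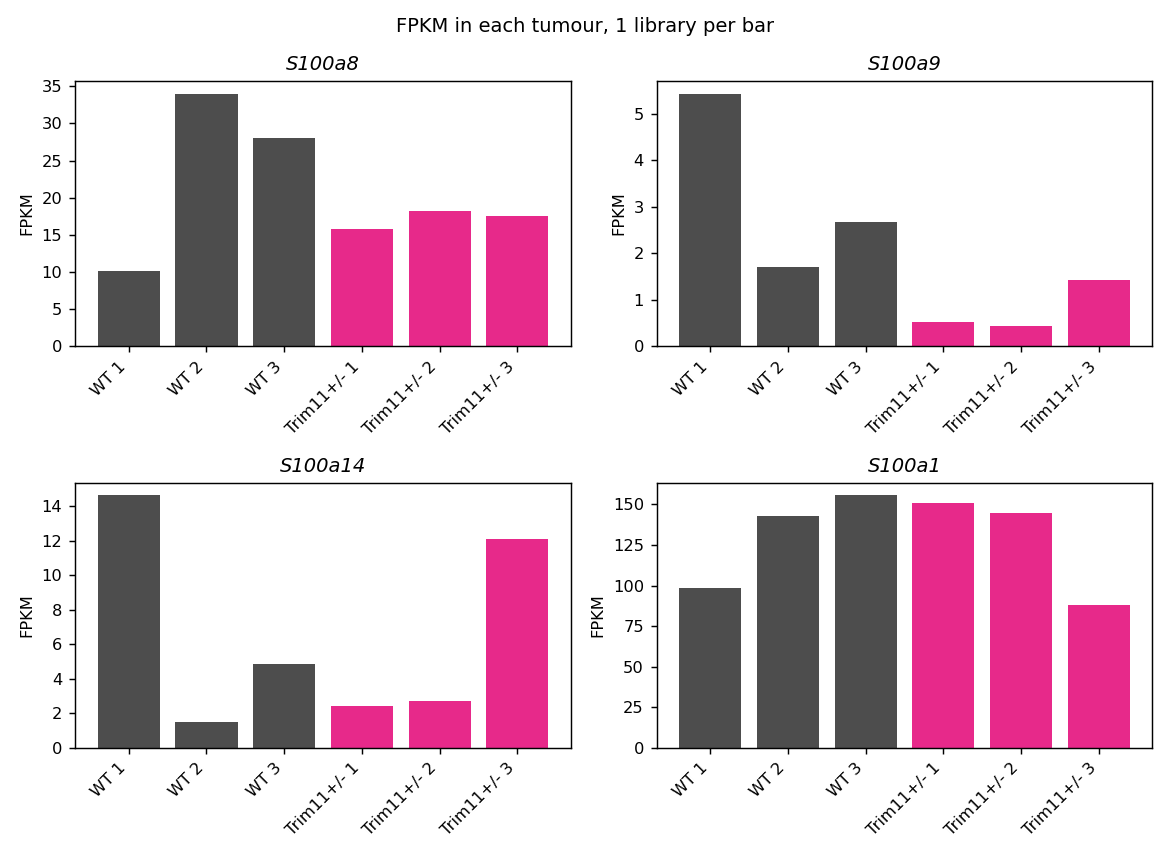
FPKM of S100a8, S100a9, S100a14 and S100a1 in each of the 6 tumours, 1 library per bar, with WT in grey and Trim11+/- in pink and linear vertical axes from 0. S100a9 is lower in each Trim11+/- tumour than in each WT tumour, S100a8 is lowest in WT 1, and WT 1 and Trim11+/- 3 have the highest S100a14 (14.6 and 12.1 FPKM) and the lowest S100a1 (98.8 and 88.1 FPKM).

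In S100a14, S100a1, S100a16 and S100a6 the same 2 tumours, 1 of each genotype, held the 2 highest or the 2 lowest values, a pattern described after the values were seen. S100a11 also had its 2 highest values there, at 496 and 498 FPKM, close to the 492 FPKM of WT 2. The share of all genes with this pattern was not counted. Over all 17328 genes these tumours, WT 1 and Trim11+/- 3, were the most alike pair across genotypes (r = 0.37), so the pattern is not shown to be particular to S100 members. S100a14, an epithelial member, measured 14.6, 1.48 and 4.85 FPKM in WT and 2.40, 2.70 and 12.1 FPKM in Trim11+/-. WT 1 and Trim11+/- 3 were the highest, and each stood apart from the other tumours of its own genotype. S100a1 measured 98.8, 143 and 156 FPKM in WT and 151, 145 and 88.1 FPKM in Trim11+/-, with the same 2 tumours lowest.

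S100a16 measured 37.1, 62.5 and 64.8 FPKM in WT and 59.0, 67.3 and 31.7 FPKM in Trim11+/-, and S100a6 58.1, 68.1 and 67.3 FPKM in WT and 84.4, 74.2 and 41.3 FPKM in Trim11+/-. Both were again lowest in WT 1 and Trim11+/- 3. In the same 2 tumours the summed adipocyte markers were the lowest of the 6, at 14.9 and 8.56 FPKM, against 28.5 to 117 FPKM in the others, whose part in these values was not tested. The log2 differences by genotype of S100a14, S100a1, S100a16 and S100a6 lay between -0.15 and -0.01, with SE from 0.26 to 0.78.

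S100a11, S100a10 and S100a13 were level between genotypes. S100a11 measured 496, 492 and 405 FPKM in WT and 386, 455 and 498 FPKM in Trim11+/-. S100a10 measured 73.9, 78.8 and 85.3 FPKM in WT and 84.5, 64.9 and 66.9 FPKM in Trim11+/-, and S100a13 29.4, 45.4 and 35.3 FPKM in WT and 42.3, 34.5 and 36.7 FPKM in Trim11+/-. For these 3 the log2 difference lay between -0.14 and 0.06, with SE from 0.13 to 0.17.

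S100b, known from glia and adipocytes, measured 4.07, 3.05 and 4.63 FPKM in WT and 2.79, 6.59 and 8.28 FPKM in Trim11+/- (log2 difference 0.40 ± 0.34 SE, limma adjusted p = 0.832). Trim11+/- 1 was the lowest of the 6, and without it S100b met the call rule at 0.78 (adjusted p = 0.623). S100g was read 17, 0 and 11 times in WT and 3, 0 and 0 times in Trim11+/- tumours, and a count of 0 allows up to 0.582 to 0.711 FPKM. Its log2 difference was -1.05 ± 0.55 (SE, adjusted p = 0.740), and without WT 2 it was -1.69 and met the call rule (adjusted p = 0.683).

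Receptors and partners gave no call in the tumours. Of 24 listed, 23 were tested, with a median log2 difference of -0.06 against -0.0048 over all genes. Ager measured 2.39, 2.07 and 2.19 FPKM in WT and 1.05, 2.12 and 1.09 FPKM in Trim11+/- (log2 difference -0.44 ± 0.20 SE, limma adjusted p = 0.715), so 2 of 3 Trim11+/- tumours lay below WT. Tlr4 stood at 4.50 to 7.64 FPKM, Anxa2 at 76.2 to 112 FPKM and Cacybp at 27.4 to 42.9 FPKM, each with overlapping genotypes. The genes whose log2 level over the 6 tumours was most like that of S100a8, among 9483 with a mean of at least 5 FPKM, were Dnajc3, Susd6, Rab28, Tlr4 and Mtmr4 (r from 0.97 to 0.98, a description over the same 6 libraries).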

How the data were processed

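Poly(A) RNA was sequenced from 7 MDA-MB-231 lines and 6 mouse mammary tumours, with a kit that keeps no strand. Per their methods, the authors mapped reads to hg19 or mm10 with HISAT2 and deposited FPKM per gene from Cufflinks. The submitters' processing notes also name Bowtie 0.12.2 and the build mm8, with no role, and the tumour values are whole reads over exon length and library total (below), which Cufflinks estimates need not be, so how those FPKM were made is uncertain. The 27 human rows with a date for a symbol were left out. Members and lists were chosen with earlier results of these data known. Members with a mean of at least 0.5 FPKM were named, and those with a mean of at least 5 FPKM given per sample.

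Genes with a mean of at least 0.5 FPKM were fitted as log2(FPKM + 1) with limma 3.58.1 (trended eBayes, R 4.3.3), which understates changes of low genes, and adjusted by Benjamini-Hochberg over all genes. Calls needed a 1.5-fold ratio of means and an unadjusted p under 0.05. The fits were also run on simulated data, with less noise than observed and larger planted changes than the members had in the main fits. That run does not show how the fits perform at the sizes reported here. Single members had exact permutation tests (scipy 1.17.1) in the tumours and for each guide in the lines, where the other guide was left out of account. Tumour values gave whole reads (within 0.01 reads) for 99.4% of 53455 genes, and voom on those reads called 263 genes higher and 285 lower. Gene positions are from GENCODE; promoters are from RefSeq. Amino-acid sequences were not used here. Alternatives covered the pseudocount, filter, scaling, fold, variance trend, replicate block and each library left out. The deposited tables held no columns of the authors' comparisons.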

Additional observations from a re-analysis of the deposited data

How the results depend on the processing

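Some counts of called members held under the settings that keep the 1.5-fold rule and the filter. These were the members higher with the KDM5C guide (1), those higher than Control, and those lower in KDM5C-KD than in DKD. The counts lower than Control did not hold, as given further on. With no filter on low values, the lower count for the KDM5C guide was 3 in place of 1, the TRIM11 guide had 1 member higher and 1 lower in place of 0, and KDM5C-KD minus DKD had 1 higher in place of 0. At a fold of 2, the count was 0 for the KDM5C guide lower, 0 for TRIM11-KD below Control, 0 above and 1 below for KDM5C-KD, and 0 above and 2 below for DKD. From the mean of the lines, 5 members were below Control in TRIM11-KD and 4 over all 6 lines. With each library left out in turn, the tumour counts ran from 0 to 1 higher and 0 to 2 lower, the KDM5C guide from 0 to 3 lower, the TRIM11 guide from 0 to 2 lower, KDM5C-KD minus DKD from 0 to 1 higher, TRIM11-KD below Control from 2 to 8 and all 6 lines below Control from 0 to 3. No log2 change that passed an unadjusted p under 0.05 as reported changed sign. Some that passed only without 1 library did: S100a8 was -0.81 without WT 1 and 0.01 without WT 2, and S100A4 for the KDM5C guide was 0.55 without Control and -0.10 without DKD 2. Dropping the filter adds genes and a fold of 2 is stricter by construction, and other causes were not tested. The tumour count of lower members was 0 without Trim11+/- 2 and 2 without WT 1 or without WT 2, and 1 member was higher without Trim11+/- 1. The KDM5C guide's lower count was 0 without Control. The counts below Control in KDM5C-KD and in DKD also moved with 1 line left out, through S100A3 and S100A16.

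With the replicate block, the tumour count was 2 lower (S100a9 and S100g) and the KDM5C guide count 2 lower (S100A5 and S100P), and the other counts were those of the fit without it. The numbers do not pair the tumours: deviations of same-numbered tumours correlated at -0.33, 0.04 and -0.13. Low reads limit S100a9 and S100g, and low FPKM at unknown depth limits S100A5 and S100P. The single Control library limits every ratio to it.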
